A study of Papilio xuthus with 16 samples.

Results

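Osiris 9E (gene number Px-0018) of the swallowtail butterfly Papilio xuthus was followed in the larval epidermis by all 3 microarray probes of its sequence, out of 8697 P. xuthus probes for 3380 sequences. The gene was chosen from its readout: earlier work on these data had found it above background in fewer samples than other genes of comparable clone number. Its detection and stage pattern are therefore given as a description, with no test. The larva carries a mimetic, bird-dropping pattern in its young instars and a green cryptic pattern in its final one. Each of the 16 arrays compared 1 darkly marked region, labelled with Cy5, with 1 pale region, labelled with Cy3. In the third instar (6 arrays, molt to another mimetic instar), black epidermis of abdominal segments 4 to 5 was set against white epidermis of abdominal segments 2 to 4, at intermolt (day 2) and at 5 molting stages timed from head capsule slippage (HCS), the shedding of the old head capsule from the new head: 0, 4, 8, 11 and 16 h. In the fourth instar (10 arrays, molt to the cryptic instar), the eyespot of thoracic segment 3 was set against thoracic green epidermis of segment 2, and V-shaped markings of abdominal segments 4 to 5 against abdominal green epidermis of segments 3 to 4, at intermolt (day 2) and at 1, 4, 10 and 13 h after HCS. The titles of the fourth-instar arrays call the pattern mimetic, but their source names and tissues give the cryptic regions, which were followed here. All larvae fed on the same host plant and received no treatment. Every stage and comparison had 1 array, with no repeat and no dye swap, and the sources used here do not give the number of larvae behind each RNA.

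Osiris proteins are an insect-specific family of secreted or membrane-associated proteins with a signal peptide, paired cysteines and a short conserved motif near the C terminus. In Drosophila the genes lie in a cluster and are switched on in epithelia that are secreting cuticle, in partly different temporal orders, and members of the family act in shaping tracheal tubes and the nanopores of olfactory hairs. The larval epidermis makes a new cuticle at each molt: the old one is loosened and digested, and an envelope, then chitin-containing layers, are laid down beneath it. The role of osiris 9E itself in Papilio is not given in the sources used here.

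The design table lists 2 probe sequences for osiris 9E, shown here because they say which parts of the messenger were read. It pairs them with the gene and not with the single probes, so they cannot be assigned to probes 1, 2 or 3, and no sequence of the remaining probe was used.
Osiris 9E probe sequence 1: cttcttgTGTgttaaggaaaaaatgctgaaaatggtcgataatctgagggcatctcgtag
Osiris 9E probe sequence 2: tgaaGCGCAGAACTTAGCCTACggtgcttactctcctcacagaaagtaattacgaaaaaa
Sequence 1 matched bases 177 to 236 of the cDNA consensus and codes for residues 38 to 56 of the 252-residue protein, and its capitals mark a cysteine codon. Sequence 2 codes for the last residues, 238 to 252, and ends 11 bases after the stop codon. Its capitals mark the 18 bases that code for the conserved C-terminal motif (alanine, glutamine, any residue, leucine, alanine, tyrosine). That motif was found by exact match in 5 of the 9 Osiris proteins and, counting these, in 1.27% of the proteins in the part of the gene table used here. In a global alignment, osiris 9E was 42.9% identical to osiris 9A, 40% to osiris 9D, 37.5% to osiris 9B, 34.8% to osiris 7 and 25.3% to osiris 2.

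Between 78% and 88.5% of the P. xuthus probes were well above background in each of the 32 samples, by the scanner software's own noise test. The labelled tissue was checked with 10 cuticular protein genes, of which at least 9 were well above background in every sample. All 12 muscle genes examined were above background in every sample too. The fat body marker gene read 50600 to 134000 in the 4 intermolt samples of the fourth instar, against 8.47 to 2090 in the other 28 samples. The arrays lay on 2 slides of 8 arrays. The third instar at intermolt, 0, 4 and 16 h and the fourth instar at intermolt and 1 h were on slide 2, the remaining stages on slide 1, and no stage was on both.

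At the start of each molt, osiris 9E was bright in every region. At 0 h of the third molt, probes 1, 2 and 3 gave signals of 138000, 56600 and 148000 in black epidermis, against 89500, 44800 and 111000 in white epidermis. At 4 h they gave 97600, 23500 and 106000 in black epidermis, against 128000, 32000 and 135000 in white epidermis. Both regions were thus bright at both stages, and which of them was higher differed between the stages. At 1 h of the fourth molt, the signals were 148000, 82900 and 139000 in the eyespot, against 165000, 96200 and 144000 in thoracic green epidermis. On the other array of that stage, probes 1 and 2 gave 114000 and 71800 in the V-shaped marking, against 95000 and 63200 in abdominal green epidermis. Probe 3 gave 31200 and 28000 there, in spots that the software marked as outliers in both channels, and these are left out of every mean and ratio. No spot of the gene was saturated.

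These 8 samples were the ones in which every probe of osiris 9E was well above background. Across them the highest level was 1.84 times the lowest for probe 1, 4.09 times for probe 2 and 1.4 times for probe 3, the last over 6 samples. By probe 1 after loess and Aquantile normalization, which makes levels comparable between arrays, the order ran from 17.76 (log2 level) in thoracic green epidermis at 1 h through the V-shaped marking (17.66) and the eyespot (17.61) at 1 h, black at 0 h (17.54), abdominal green at 1 h (17.40), white at 4 h (17.38) and black at 4 h (17.02) to white at 0 h (16.90). By the unscaled signals above, the V-shaped marking came below white at 4 h. With 1 array per stage there is no spread between replicates against which neighbours in this order could be separated. In such bulk samples, fewer cells of a type and less RNA per cell cannot be told apart.

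**Figure D1:**
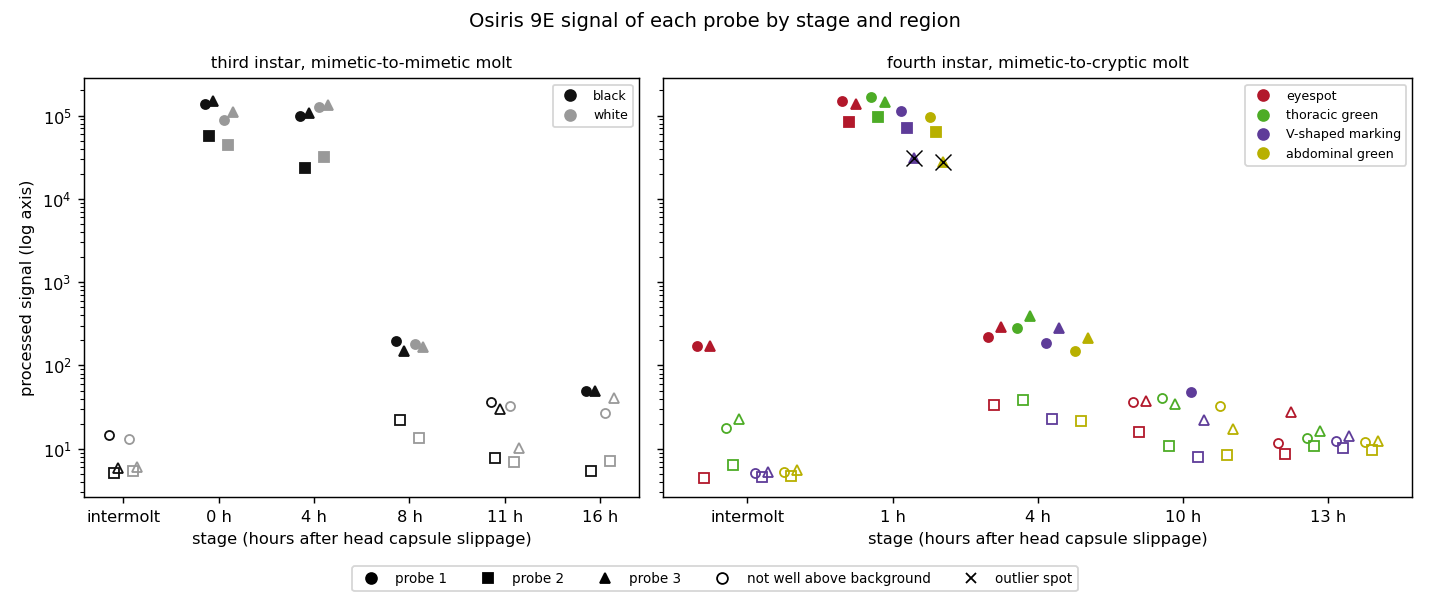
Processed signal (log axis) of the 3 osiris 9E probes at each stage, in hours after head capsule slippage, for the third instar (left) and the fourth instar (right). Filled symbols are well above background, open symbols are not, and crosses mark outlier spots. The 8 samples of 0 and 4 h in the third molt and 1 h in the fourth lie between 23500 and 165000 apart from the 2 crossed spots, and the eyespot at intermolt stands alone at 169 and 172 with probes 1 and 3.

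The signal then collapsed, and at a different hour in the 2 molts. In the third molt it was still high at 4 h and had dropped by 8 h, where probes 1 and 3 read 194 and 149 in black epidermis, against 180 and 166 in white epidermis, and probe 2 was not well above background in either. In the fourth molt it had dropped by 4 h: probes 1 and 3 read 219 and 287 in the eyespot and 185 and 281 in the V-shaped marking, against 148 and 212 in abdominal green epidermis. In thoracic green epidermis probe 1 read 282, and probe 3 was brighter there than in the other regions of that stage. After the same normalization, the signal at 4 h of the third molt was 930 to 1530 times that at 8 h over the 4 values measured on both sides. The signal at 1 h of the fourth molt was 437 to 1010 times that at 4 h over 6 such values. On the log2 scale these folds averaged 10.3 ± 0.246 (SD over 2 regions) and 9.62 ± 0.41 (SD over 4 regions). They compare arrays of different slides. With each channel scaled to its 75th percentile, the averages were 9.36 and 8.78, which as folds are smaller by 1.92 times and 1.79 times.

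Late in the molt osiris 9E was at or near the limit of detection. At 11 h of the third molt and 13 h of the fourth no probe was well above background in any region. At 10 h of the fourth molt only probe 1 in the V-shaped marking was, at 47.8. At 16 h of the third molt probes 1 and 3 in black epidermis were, at 49.2 and 49.4, whereas white epidermis had 27 and 41.1, both not well above background. The stages of 0 h and 16 h shared slide 2, and there the black epidermis at 0 h was 2830 times (probe 1) and 3160 times (probe 3) brighter than at 16 h, where both probes were above background but close to its limit. For a probe not well above background, a fold is a lower bound: the bright sample over the higher of the probe's own value and the lowest signal well above background on that array, both after normalization, and open to dye bias without dye swaps. By that measure the signal at 0 h of the third molt was at least 978-fold higher than at 16 h, the lowest of 4 bounds, and at least 2670-fold higher than at 11 h, the lowest of 6 bounds. The comparison with 11 h crosses slides, and on unscaled signals the lowest bound there was 1450-fold.

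Before the molt the gene was not above background in 5 of 6 regions. At intermolt of the third instar the 3 probes read 14.8, 5.11 and 5.81 in black epidermis, against 13, 5.45 and 6.08 in white epidermis. In the V-shaped marking and abdominal green epidermis of the fourth instar they lay between 4.58 and 5.5. The eyespot at intermolt was the exception. There probes 1 and 3 were well above background, at 169 and 172, against 17.7 and 23 in thoracic green epidermis on the same array, which is at least 4.72-fold (probe 1) and at least 4.7-fold (probe 3) higher after normalization. Probe 2 read 4.47 and was not well above background. The fat body marker was also high at this stage (94500 in the eyespot, against 71600 in thoracic green epidermis), and its part in the signal was not tested. This eyespot level was 0.114% (probe 1) and 0.124% (probe 3) of that in the eyespot at 1 h. On slide 2, where intermolt and early molt were measured together, the signal at 0 h of the third molt was at least 1280-fold higher than at intermolt, the lowest of 6 bounds. That at 1 h of the fourth was at least 2080-fold higher, the lowest of 8 bounds, and for probes 1 and 3 in the eyespot 790 and 739 times the intermolt level.

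Counted over all 32 samples, osiris 9E was well above background with at least 1 probe in 17 samples, of which 10 were marked and 7 pale, with 16 samples of each kind. Marked samples were always Cy5, so region and dye cannot be told apart in these counts. The detection limit differed between channels. At 16 h of the third molt the lowest signal well above background was 20.7 in black and 39.9 in white epidermis. At 10 h of the fourth it was 36.4 in the V-shaped marking and 39.7 in abdominal green epidermis. Every probe of osiris 9E was well above background in 8 samples, and at least 1 probe exceeded a signal of 100 in 15 samples. Probe 2 was the dimmest and was above background in 8 samples, against 17 for probe 1 and 16 for probe 3. Of 3312 sequences above background in at least 4 samples, 205 were above background in no more samples than osiris 9E, and the median was 32 samples. Its stage means spanned 12.1 on the log2 scale, the 30th widest range of the 3312, against a median of 2.78. These values rest on the detection that chose the gene.

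The marked and pale regions were compared in the 6 arrays of the early molt, up to 4 h after HCS. No direction was shared by the 3 comparisons. The log2 ratio of black over white was 0.46 at 0 h and -0.40 at 4 h of the third molt, as means over 3 probes. That of eyespot over thoracic green was -0.14 at 1 h and -0.34 at 4 h of the fourth molt, and that of V-shaped marking over abdominal green was 0.22 and 0.27. The probes agreed in sign on each array. Probe 2 was not well above background at 4 h of the fourth molt, and without it the ratios there were -0.41 for the eyespot and 0.36 for the V-shaped marking.

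No probe of osiris 9E reached 2-fold on any of these arrays. Among all probes well above background in both channels, 2-fold or more in either direction was reached by 5.37% at 0 h and 3.17% at 4 h of the third molt, by 7.78% (eyespot) and 8.4% (V-shaped marking) at 1 h of the fourth, and by 9.16% (eyespot) and 8.55% (V-shaped marking) at 4 h. The middle of all probes was close to 0 on each array, with medians between -0.02 and -0.01.

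**Figure D2:**
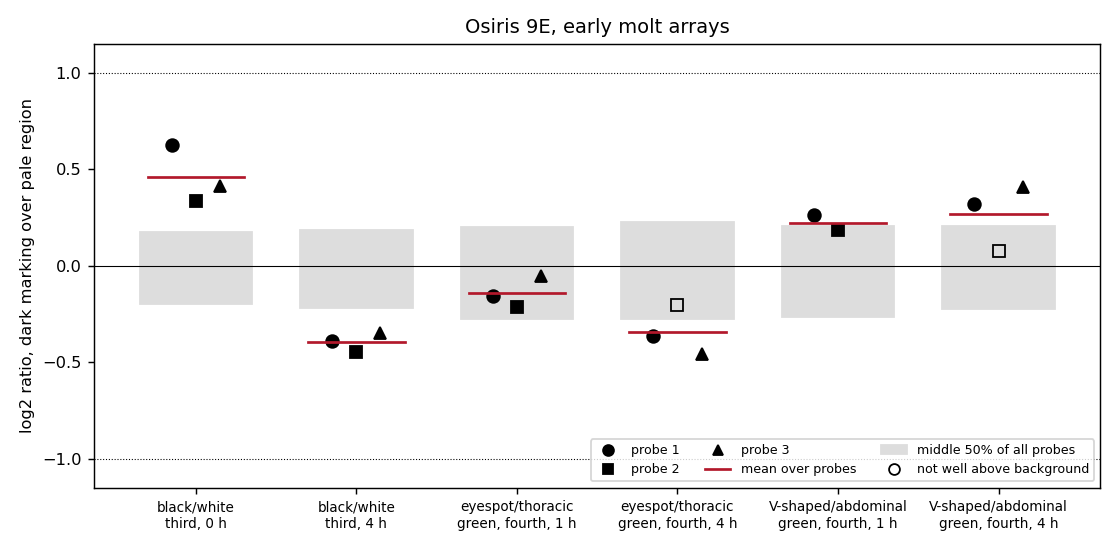
Log2 ratio of the dark marking over the pale region for each osiris 9E probe on the 6 early molt arrays, with the mean over probes (red line) and the middle 50% of all probes well above background in both channels (grey). Open symbols are not well above background in both channels, and dotted lines mark 2-fold. The means run from -0.40 to 0.46, with 3 above 0 and 3 below.

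Over the 6 arrays the mean log2 ratio was 0.01 ± 0.35 (SD), above 0 in 3 arrays and below 0 in 3. Flipping the signs of the arrays in every combination (exact permutation test, two-sided) gave p = 0.969, where the smallest p that 6 arrays allow is 0.0312. It was the only test of this kind. In limma, fitted over the same arrays to all 8697 probes with Benjamini-Hochberg adjustment, the mean log2 ratio was 0.05 for probe 1 (95% interval -0.33 to 0.42, adjusted p = 0.881) and -0.04 for probe 2 (-0.32 to 0.24, adjusted p = 0.853). For probe 3 it was -0.01 (-0.42 to 0.41, adjusted p = 0.984) over 5 arrays, since its outlier spot was dropped. A common shift of 2-fold thus lay outside all 3 intervals, and smaller shifts within them did not. The fit called 0.241% of all probes higher and 0.149% lower in the marked regions, and without any 1 of the 6 arrays it called 0 or 1 probe. The arrays differ in stage and region, so the spread in both tests is that between stages and comparisons. The summed signal of the 12 muscle genes was lower in the marked region on all 6 arrays (327000 to 876000 in the marked samples, against 395000 to 1090000 in the pale samples). In limma 5 of their 77 probes were called lower and none higher, and the median gene ratio was -0.33. Of the 77, 48 (62.3%) had an unadjusted p under 0.05, against 19.3% of all probes. The fat body marker ranged over 9.82 to 1120 in the marked samples, against 8.47 to 2090 in the pale ones. Their part in the ratios was not tested.

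Osiris 9E is 1 of 9 genes named Osiris in the part of the gene tables used here. That part gave gene numbers to 470 sequences, against 3380 P. xuthus sequences on the array, so further members may be missing. The 9 genes did not move as a block. Stage levels are given here as geometric means over the regions of the median over a gene's probes, with signals raised to the lowest one well above background in the sample. These processed signals are not scaled between arrays. They compare stages of 1 gene and not genes with each other. All 9 genes were highest during the molt and none at intermolt. Of all 3312 sequences, 30.1% were highest at intermolt in the third instar and 30% in the fourth. In the third molt, 4 of 9 were highest at 0 h, 2 at 4 h and 3 at 8 h. In the fourth, 5 were highest at 1 h, 3 at 4 h and 1 at 10 h. After loess and Aquantile normalization the stage was the same for 7 of 9 genes in the third molt and 8 of 9 in the fourth. Osiris 9E then stood at 153000 at 0 h and 150000 at 4 h, and osiris 9D was highest at 4 h and at 1 h. Over all 3312 sequences, 17.5%, 7.85% and 12% were highest at 0, 4 and 8 h of the third molt, and 27.1%, 16.9% and 8.15% at 1, 4 and 10 h of the fourth.

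The early members were osiris 7, 9A, 9B, 9E and 9F. Osiris 7 had a short pulse too. In the third instar, with 1 array per stage, it was already above background at intermolt and had fallen further than osiris 9E at 4 h. At intermolt its probes had medians of 397 in black and 386 in white epidermis, both well above background, where osiris 9E was not. It then averaged 46300 at 0 h, 6640 at 4 h and 34.7 at 8 h. Osiris 9E averaged 111000 at 0 h, 112000 at 4 h and 157 at 8 h. In the fourth instar osiris 7 did not lead at intermolt, where it averaged 24.1 and osiris 9E 40.1. In the fourth molt osiris 7 averaged 63400 at 1 h and 162 at 4 h, and osiris 9E averaged 109000 at 1 h and 203 at 4 h.

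Osiris 9A decayed more slowly, with 15600, 8180 and 423 at 0, 4 and 8 h of the third molt and 23300 and 3290 at 1 and 4 h of the fourth. Osiris 9B lasted to 8 h, with 76400, 51700 and 43900 at 0, 4 and 8 h and 298 at 11 h. Osiris 9F gave 1410 at 0 h and 91.4 at 4 h, but its 13 probes disagreed: 1 of them was above background in no sample and another in 20 samples. In the third instar at 4 h its brightest probe still read 96000 in black epidermis and 145000 in white epidermis.

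Osiris 18 and 19 were highest at stages where osiris 9E had already dropped. Osiris 18 averaged 48200 at 8 h of the third molt and 58700 at 4 h of the fourth. Osiris 19, whose Drosophila counterpart acts in tracheal tubes, averaged 84700 and 87700 at these stages, although 1 of its 5 probes was bright in all 32 samples, between 99100 and 426000, and did not follow the others. Both stages were on slide 1, the slide on which osiris 9E was dim. Osiris 9D was broad, between 14500 and 22700 from 0 to 8 h of the third molt. Osiris 2 was highest at 4 h of the third molt (2700), where osiris 9E was high too, and reached 1900 at 10 h of the fourth.

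**Figure D3:**
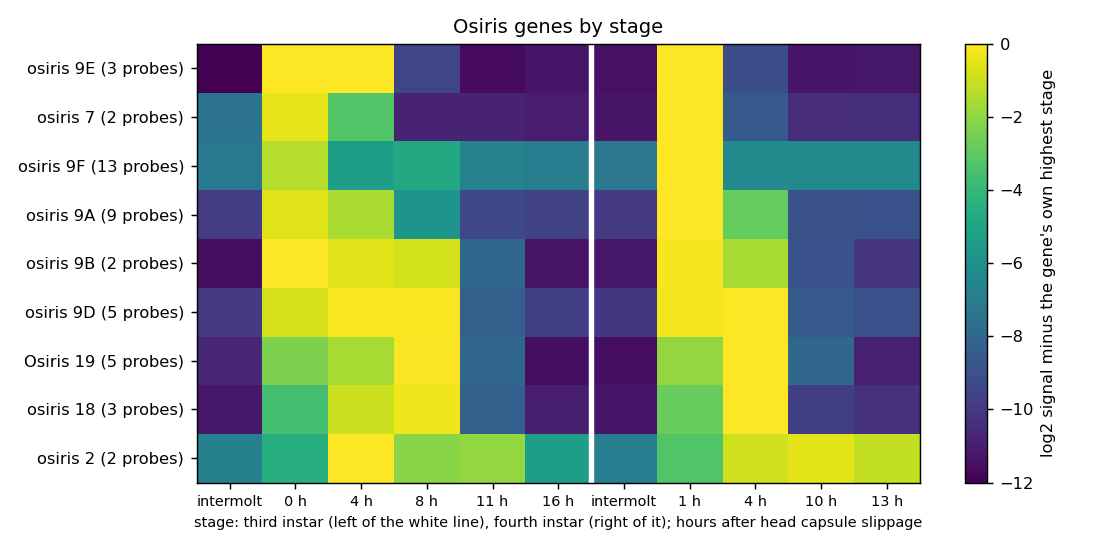
Stage levels of the 9 Osiris genes in the third and the fourth instar, as log2 signal minus each gene's own highest stage (colour), after raising low signals to the detection floor of the sample. Osiris 9E is at its highest at 0 and 4 h of the third molt and at 1 h of the fourth, while osiris 18 and 19 are highest at 8 h and at 4 h.

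Between marked and pale regions the family's median ratio was farthest from 0 at 4 h of the fourth molt, in the eyespot (-1.20). There all 9 were lower in the eyespot than in thoracic green epidermis, as medians over the probes well above background in both channels. Of the 9, 8 were lower by 2-fold or more, on an array where 9.16% of all probes reached 2-fold in either direction. Osiris 9E was the exception, at -0.41. The log2 ratios of the 8 ran from -1.83 for osiris 9A and -1.62 for osiris 9B to -1.01 for osiris 2. Osiris 9A read 2070 in the eyespot, against 7930 in thoracic green epidermis (medians of 9 probes), and osiris 9B read 9480 against 29300. On the array of the V-shaped marking at the same stage, the ratios ran from -0.47 to 0.61, 4 above 0 and 5 below, and none reached 2-fold. This was 1 array each. The 12 muscle genes summed to 328000 in the eyespot and 395000 in thoracic green epidermis on that array, and their part in the difference was not tested.

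At 0 h of the third molt, 6 of the 9 Osiris genes were higher in black epidermis, osiris 9D by the most (0.88), and osiris 18 and 19 were lower (-0.76 and -0.71). At 4 h, 8 of 9 were lower in black epidermis, osiris 9E and 9F by the most (-0.39 and -0.38), and osiris 7 was at 0.06. In limma none of the family's 44 probes was called in either direction, and 11 (25%) had an unadjusted p under 0.05, against 19.3% of all probes. The median of the gene medians was -0.24.

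**Figure D4:**
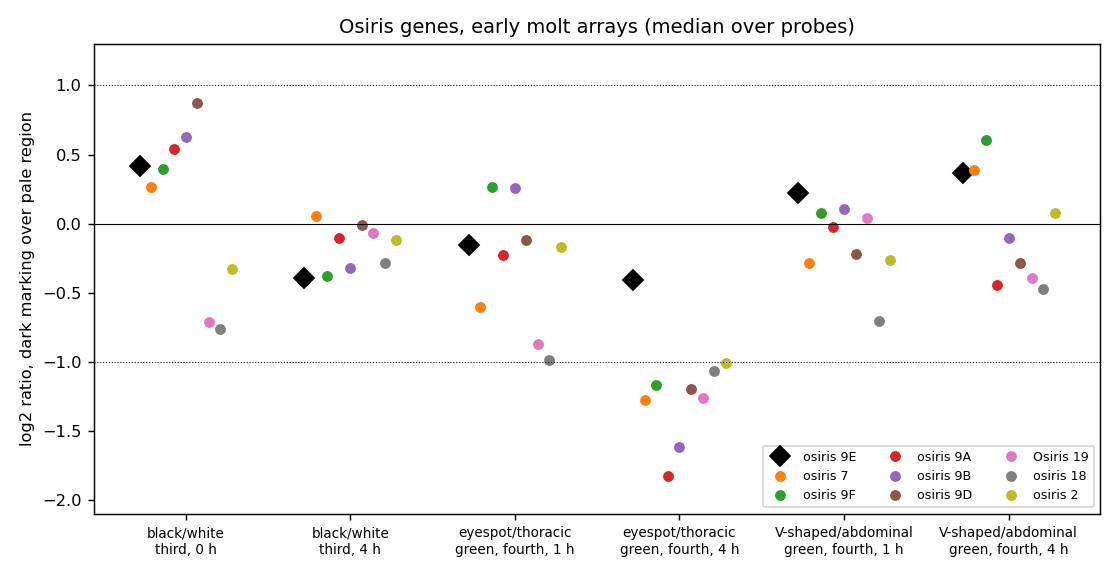
Log2 ratio of the dark marking over the pale region for the 9 Osiris genes on the 6 early molt arrays, as the median over the probes of a gene well above background in both channels. Dotted lines mark 2-fold. At 4 h of the fourth molt 8 genes lie at or below -1 for the eyespot while osiris 9E (black diamond) lies at -0.41, over 2 dim probes.

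The weak eyespot signal at intermolt was seen with other family members as well. In the eyespot 8 of 44 Osiris probes, from 5 genes, were well above background. In thoracic green epidermis 1 probe was, the constantly bright probe of Osiris 19. The lowest signal well above background differed, at 18.6 in the eyespot and 33.3 in thoracic green epidermis. An Osiris 19 probe at 30 was thus counted in the eyespot, whereas another at 24.2 was not counted in thoracic green epidermis. Part of the difference in counts may therefore lie in the detection limit, and the share of all probes was not set beside it. Besides osiris 9E, both probes of osiris 9B read 50.9 and 85.7 in the eyespot, against 8.28 and 14.3 in thoracic green epidermis, and 1 probe of osiris 9F read 94.7 against 8.07. Osiris 7 read 6.53 and 16.6 in the eyespot, not well above background. In the V-shaped marking and abdominal green epidermis of that stage 5 and 4 probes were well above background, with limits of 18 and 25.5. In black and white epidermis of the third instar 9 and 6 were, with limits of 21 and 29.2.

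Of 15 genes for chitin turnover and the apical extracellular matrix, 7 (46.7%) were highest at 0 h of the third molt and 7 at 1 h of the fourth. Over all sequences the shares at these stages were 17.5% and 27.1%. Osiris 9E was high at both stages, but equally at 4 h of the third molt, where none of the 15 was highest. The genes highest at 0 h and at 1 h included chitinases 5 and 7, of an enzyme class that cuts chitin. Membrane proteins of the zona pellucida class, which in Drosophila link the apical membrane to the matrix, were among them too. Chitinase 7 averaged 114000 at 0 h and 545 at 4 h of the third molt, and 88300 at 1 h and 215 at 4 h of the fourth. Chitinase 5 averaged 12400 and 218 in the third molt, and 17200 and 73.4 in the fourth. Dusky averaged 23700 and 805 in the third, and 25200 and 61.5 in the fourth. In the third molt these genes had thus dropped at 4 h, where osiris 9E had not. Dusky-like (Px-0137) was closer to it, with 32600, 23000 and 3770 at 0, 4 and 8 h. The other dusky-like gene of the list, Px-0364, was low at 0 h (542) and highest at 11 h (17700).

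The genes for proteins that bind or modify chitin were highest at later stages of the molt. Obstructor-A (Px-0204) averaged 2460 at 0 h and 156000 at 8 h of the third molt, and 12300 at 1 h and 177000 at 4 h of the fourth. Chitin deacetylase 1, the Drosophila gene serpentine, was highest at 11 h (104000) and at 10 h (165000). At intermolt of the fourth instar both genes were already high, at 72500 and 71500, and then lower at 1 h, at 12300 and 22000. At intermolt of the third instar they stood at 2380 and 8630. None of the list's 57 probes was called between marked and pale regions in limma, 6 (10.5%) had an unadjusted p under 0.05, against 19.3% of all probes, and the median gene ratio was -0.01. Px-0364 had the ratios farthest from 0 on the black arrays, -1.12 at 0 h and -1.11 at 4 h of the third molt, and was at -1.64 (1 h) and -2.83 (4 h) in the eyespot. After normalization 14 of the 15 genes were highest at the same stage in each molt.

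The ecdysone response, the hormonal cascade that times molting, was followed with 11 genes. In the third molt 4 (36.4%) were highest at 0 h, against 17.5% of all sequences, and 4 at 11 h, against 23.8%. None was highest at 4 h, against 7.85% of all sequences. In the fourth molt 4 were highest at 1 h, against 27.1%, and 4 at 4 h, against 16.9%. The nuclear receptor E75A averaged 404 at intermolt, 1630 at 0 h and 458 at 4 h of the third molt, and 1890 at 1 h and 387 at 4 h of the fourth. Hormone receptor 4 averaged 174 at 0 h and 82.1 at 4 h, and 217 at 1 h and 56 at 4 h. The nuclear receptor ftz-f1, which acts late in the cascade, averaged 24 at 0 h, 217 at 4 h and 629 at 11 h, and 24.6 at 1 h and 660 at 4 h of the fourth. At 4 h of the third molt, osiris 9E was thus high while E75A was down and ftz-f1 was up. None of the 29 probes of this list was called in limma, 9 (31%) had an unadjusted p under 0.05, against 19.3% of all probes, and the median gene ratio was 0.16. Several of these genes were dim, and after normalization 6 of 11 in the third molt and 9 of 11 in the fourth were highest at the same stage.

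The sequences most like osiris 9E were found by the Pearson correlation of log2 signals over the 32 samples, among 3311 other sequences. It is a description, since all points share their arrays and a few bright stages set the value. The 10 highest values ran from 0.967 to 0.942, against a median of 0.05 over all sequences, and 122 sequences exceeded 0.8. By Spearman's correlation only 1 of these 10 was among the highest 10, so the neighbours named depend on the measure. Of these 10, 6 had no gene number in the tables used here. The remaining 4 were Px-0319, listed as similar to the Drosophila gene CG9411 (0.963), osiris 7 (0.955), dusky (0.951) and Px-0007, listed as an unknown secreted protein (0.942). Px-0319 had a median signal of 34500 in the 8 samples with every osiris 9E probe above background, against 54.1 in the other 24, and Px-0007 had 111000 against 208. Osiris 9E itself had 86200 against 43.2. Of the other Osiris genes, 9F ranked 13th (0.934) and 9A 37th (0.896), and osiris 18 (0.563) and osiris 2 (0.103) were far down the order.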

How the data were processed

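RNA of 32 epidermis samples was read on 16 arrays with 2 colours. The files the authors deposited hold, per the file headers, Feature Extraction 9.5.3.1 output: processed signal intensity of each channel (with background removed and dyes balanced inside an array, but arrays not scaled to each other), flags and a log10 ratio. The deposited series table repeats the log10 ratio, within 0.005. P. xuthus probes were named through the gene numbers of the published gene tables. Ratios are log2(Cy5/Cy3) of processed signals, averaged over probes. Spots with an outlier mark (220 of 139152) were left out. Folds of osiris 9E between stages used loess and Aquantile normalization of the processed signals, whereas stage levels of the gene lists and the likeness used the unscaled signals. Tests used limma 3.58.1 (R 4.3.3; 1 mean over the 6 early molt arrays, Benjamini-Hochberg over all probes, threshold 0.05), tested on simulated data, and an exact sign-flip test. Likeness used log2 signals raised to each sample's lowest signal well above background. Proteins were aligned with Biopython 1.88 (BLOSUM62). Genes named here were all Osiris genes in the table part used, examples of both pathway lists and the 10 most like sequences. This rule, the gene and the lists were chosen with earlier results of these data known. Values shown within the lists were picked after they were seen. The number of arrays limits the precision, and no gene coordinates were used. Alternatives covered scaling, normexp (offset 50) with loess, the series table, slides, array averages and each array or stage left out.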

Additional observations from a re-analysis of the deposited data

Results flagged for a closer look

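On the intermolt array of the fourth instar, the mean log2 ratio of osiris 9E for eyespot over thoracic green epidermis was 1.89 over 3 probes, far above the ratios of the other 4 arrays of that comparison, which lay between -0.34 and 0.17. Chance marks about 1 in 20 groups in this way. The value rests on probes 1 and 3, with 169 and 172 in the eyespot, against 17.7 and 23 in thoracic green epidermis, where neither was well above background, so it is not a measured ratio.

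Early in the fourth molt the 2 cryptic markings lay on opposite sides of 0. Osiris 9E was at -0.141 (1 h) and -0.341 (4 h) in the eyespot over thoracic green epidermis, and at 0.224 (1 h) and 0.269 (4 h) in the V-shaped marking over abdominal green epidermis. The difference was not tested, and all 4 values are under 2-fold.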

How the results depend on the processing

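The mean log2 ratio of osiris 9E over the early molt arrays (0.0124) changed sign between settings. With the 6 arrays kept, no setting passed the threshold. With 5, 4 or 2 arrays the smallest possible p (0.0625, 0.125 and 0.5) cannot pass it. It was -0.0362 on slide 1 (2 arrays) and -0.00212 without 1 h of the fourth molt. Without 0 h of the third molt it was -0.077. It stayed above 0 on slide 2, with 75th percentile scaling, with normexp and loess, with the series table, with the fourth-instar arrays averaged, without either 4 h stage and, chosen after seeing the data, with outlier spots kept. Leaving out 1 array at a time gave -0.077 to 0.0939. The 34 probes called by limma over all probes became 90 with normexp and loess, 82 with the series table and 155 of 5930 when only probes above background in both channels of every array were fitted. They became 0 on slide 1, 0 on slide 2 (also the arrays with every osiris 9E probe above background), 1 with averaged arrays, 0 without 0 h of the third, 1 h or 4 h of the fourth molt and 1 without 4 h of the third. Leaving out 1 array at a time gave 0 to 1, with fewer arrays in each. The 17 samples with osiris 9E above background became 8 when every probe had to be. The log2 drop at 4 to 8 h of the third molt (10.3) became 9.36 with 75th percentile scaling and 9.24 with normexp, loess and Aquantile. That at 1 to 4 h of the fourth (9.62) became 8.78, 9.09 and, with probe 3 alone, 8.98. Of the 10 sequences most like osiris 9E, 1 was shared with Spearman's order, in which samples at the detection floor count as much as bright ones, 7 with a floor of 100 and 10 with array means or 75th percentile scaling. Signals not well above background give bounds. Every ratio already pairs 2 regions within 1 array. No pairing between arrays was used, and replicate numbers were given in accession order.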
